A study of Homo sapiens with 4 samples.

Results

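RGS2 and 8 other genes for regulators of G protein signalling (RGS3, RGS10, RGS12, RGS14, RGS16, RGS17, RGS19 and RGS20) were described in HCT116 cells with and without auxin. HCT116 is a human colorectal cancer line, and here it carried a degron tag on Ki-67, a nuclear protein of dividing cells. The 9 genes were taken by name from a table of 34826 genes, and RGS2 was picked because its values were higher in both treated libraries, so its difference is given as a description without a test. The other 8 were listed as relatives of RGS2. All 9 passed the filter of at least 1 TPM (reads per gene length, scaled to 1000000 per library) in at least 2 libraries, as did 17896 genes in all.

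The IAA group held 2 libraries of cells exposed to 0.5 mM indole acetic acid (IAA), an auxin, for 24 h, and the control group held 2 libraries of the same cells left untreated. Every library came from the tagged line, so IAA itself and the loss of tagged Ki-67 cannot be told apart. Each sample was RNA from 3 dishes, selected on oligo-dT beads. The labels call the samples biological replicates but name no separate cultures or days, so that p-values measure the spread between these samples.

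RGS proteins speed the hydrolysis of GTP by the alpha subunits of heterotrimeric G proteins and so shorten signals from G protein-coupled receptors. Members of the R4 subfamily (here RGS2, RGS3 and RGS16) are mostly small proteins built around the RGS domain, and RGS2 is known for acting on Gq and as a gene switched on quickly by calcium and cAMP signals. In the R12 subfamily (RGS10, RGS12 and RGS14), RGS12 and RGS14 also carry Ras-binding domains and a GoLoco motif that holds inactive Gi alpha subunits. The RZ subfamily (RGS17, RGS19 and RGS20) has a cysteine-rich stretch near the N terminus and acts mainly on Gi and Gz.

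Both IAA values exceeded both control values for RGS2, which was picked for this, and for RGS16, against 11.8% of all genes tested. The stretches just before the starts of these 2 members are shown. They lie on chromosome 1, in the RefSeq promoter table for GRCh38.p14, at chr1:192808789-192809038 on the plus strand for RGS2 and chr1:182604409-182604639 on the minus strand for RGS16. Bases inside an exon of the gene itself were cut off first, which left 250 bases for RGS2 and 231 bases for RGS16. Neither remaining stretch overlaps an annotated exon. Capitals mark matches, on either strand, to TGACG (a part of the cAMP response element), GCGTG (the core of a xenobiotic response element) and CCAAT (the CCAAT box), motifs chosen after the values were seen.
RGS2: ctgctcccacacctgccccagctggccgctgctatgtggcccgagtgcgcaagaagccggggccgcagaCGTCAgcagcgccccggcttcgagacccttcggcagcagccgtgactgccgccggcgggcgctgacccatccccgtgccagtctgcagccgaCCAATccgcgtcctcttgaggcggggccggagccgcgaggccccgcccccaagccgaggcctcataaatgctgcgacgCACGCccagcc
RGS16: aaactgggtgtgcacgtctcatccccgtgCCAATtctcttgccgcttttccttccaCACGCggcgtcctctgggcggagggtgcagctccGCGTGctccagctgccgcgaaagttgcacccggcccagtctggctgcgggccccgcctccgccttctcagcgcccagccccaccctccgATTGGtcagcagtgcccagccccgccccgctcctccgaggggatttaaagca

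The RGS2 stretch held 1 match to each of the 3 motifs, and the RGS16 stretch held 2 matches to GCGTG, 2 to CCAAT and none to TGACG. Among 35116 human promoter windows of 250 bases, which were not cut at exons, 21.2% held TGACG, 32.2% GCGTG and 32.0% CCAAT. Of 16 such windows of 6 other members, 2 held TGACG, 7 held GCGTG and 1 held CCAAT. The RGS20 window was not analysed here. A match describes letters only and shows no binding.

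The libraries held 38733981 to 49448043 reads, recovered from TPM and gene length, and IAA replicate 1 stood apart. In it, 1787 genes rested on 1 read, against 2776 in IAA replicate 2 and 2931 and 2837 in control replicates 1 and 2. Its markers of squamous epithelium summed to 27.2 TPM, against 4.20 TPM in IAA replicate 2 and 4.62 and 4.98 TPM in the controls. Of these 6 markers, 2 were above both controls in both IAA libraries: S100A8 had 3.51 and 0.775 TPM in IAA and 0.170 and 0.320 TPM in control libraries, and KRT13 had 6.73 and 2.36 TPM in IAA and 2.31 and 2.19 TPM in control libraries. S100A9, the highest of the 6 in IAA replicate 1, had 15.5 and 0.676 TPM in IAA and 1.63 and 1.79 TPM in control libraries. Its value in IAA replicate 2 was below both controls. The part of these markers in the results was not tested. On log2(TPM + 1), IAA replicate 1 had a Pearson correlation of 0.978 with IAA replicate 2, and of 0.976 and 0.980 with control replicates 1 and 2. IAA replicate 2 had 0.986 and 0.989 with these controls, so that it was closer to them than to IAA replicate 1. Each member is therefore given with and without IAA replicate 1. MKI67, the tagged gene, had 174 and 149 TPM in IAA and 198 and 151 TPM in control libraries, and its mRNA does not check loss of the protein. The epithelial markers KRT8, KRT18, KRT19, EPCAM, CDH1 and CDX2 were present in every library, while VIL1 and CEACAM5 stayed under 1 TPM. Among markers of other cell types, 5 blood and 4 endothelial genes stayed under 1 TPM throughout. The endothelial markers summed to 0.464 and 0.516 TPM in IAA and 0.703 and 0.691 TPM in control libraries, and their part in the results was not tested. COL1A1 alone of 5 fibroblast markers and SYT1 alone of 4 neuronal markers exceeded 1 TPM, and neither separated the groups.

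RGS mRNA in these cells was dominated by RGS10, followed by RGS2 and RGS19. Over the 4 libraries RGS10 averaged 187 ± 3.28 TPM, RGS2 45.2 ± 8.15 TPM and RGS19 26.9 ± 1.58 TPM (SD, n = 4), and the ranges of these 3 genes did not overlap. RGS14 at 10.8 ± 0.511 TPM and RGS3 at 9.66 ± 0.477 TPM came next, with overlapping ranges, though RGS14 lay above RGS3 in every library. RGS12 at 6.97 ± 0.569 TPM lay below RGS3 in every library. RGS16, RGS17 and RGS20 formed the low end at 5.15 ± 0.665, 5.13 ± 0.662 and 4.81 ± 0.286 TPM, and these 3 could not be ordered beyond their spread. The table divides by the length of all annotated exons of a gene, which is 13793 bases for RGS3 and 13755 bases for RGS12 but 1252 bases for RGS10. With reads per base of the principal transcript, a measure added after the data were seen, RGS10, RGS2 and RGS19 kept ranks 1, 2 and 3, while RGS14 moved to rank 6 and RGS16 to rank 9.

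**Figure D1:**
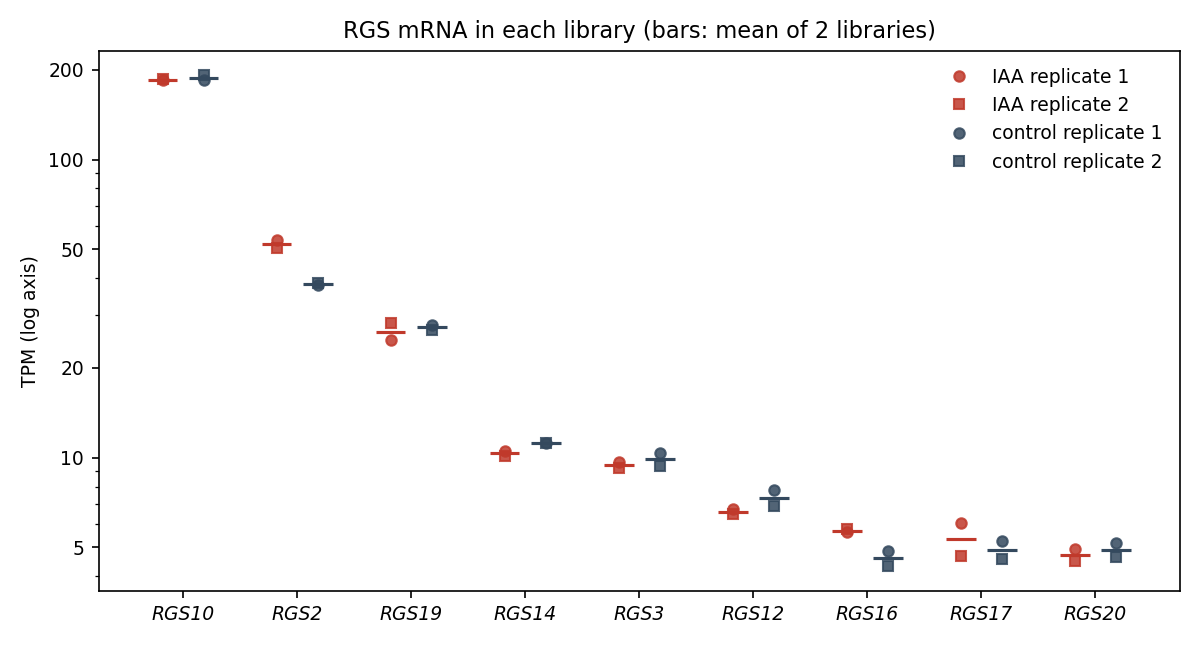
TPM (log axis) of the 9 RGS genes in order of mean level, with each point a library and each bar the mean of 2 libraries. RGS10 lies between 185 and 192 TPM in all libraries. RGS2, picked for higher IAA values, has IAA points at 50.6 and 53.8 TPM and control points at 38.0 and 38.6 TPM. Among the other 8 genes, the IAA points lie above the control points for RGS16, against 11.8% of all genes tested. They lie below for RGS12 and RGS14, against 17.7%.

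RGS2 (ENSG00000116741.7, GRCh38 chromosome 1, 192809039 to 192812283, plus strand) had 53.8 and 50.6 TPM in IAA replicates 1 and 2, against 38.0 and 38.6 TPM in control replicates 1 and 2. Both IAA libraries lay above both controls, which is the value the gene was picked for. The means were 52.2 ± 2.21 TPM in IAA and 38.3 ± 0.401 TPM in control (SD, n = 2), a ratio of 1.36. These values rested on 1339 and 1361 reads in IAA and 934 and 1254 reads in control libraries. On the log2(TPM + 1) scale used here, which understates the change of low genes, the difference was 0.44. It was 0.39 without IAA replicate 1 and 0.48 without IAA replicate 2. A log2 difference at least as large was seen for 670 of 17896 genes. In bulk RNA, more cells with the transcript and more transcript per cell cannot be told apart.

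No gene of 17896 passed the adjusted p of 0.05 in the comparison of IAA with control by limma, so that the percentage called was 0.0% in either direction (smallest adjusted p = 0.381). Unadjusted p-values under 0.05 were seen for 742 genes (4.15%), and limma voom on the recovered reads called 1 higher gene, ALDH1A3, and 0 lower. Of the 8 members besides RGS2, 0 were called, and 0 had an unadjusted p under 0.05. Of these 8, RGS16 had both IAA values above both control values, against 11.8% of all genes tested, and RGS12 and RGS14 had both below, against 17.7%. The 8 log2 fold changes had a median of -0.05, beside -0.02 over all genes tested, with 2 positive and 6 negative.

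In the R4 subfamily, RGS16, which acts on Gi and Gq alpha subunits, had 5.62 and 5.75 TPM in IAA, against 4.88 and 4.33 TPM in control libraries. It rested on 162 and 179 reads in IAA and 139 and 163 reads in control libraries, the fewest of the members. The 95% exact Poisson interval of these counts had a half-width of up to 17.0% of the reads. The groups did not overlap, but the log2 fold change of 0.26 (standard error 0.14) did not pass (limma adjusted p = 0.999), and its 95% interval ran from -0.08 to 0.59. RGS3, whose longer forms add further domains to the RGS domain, had 9.64 and 9.25 TPM in IAA and 10.3 and 9.40 TPM in control libraries. Its groups overlapped, and its log2 fold change was -0.06 (95% interval -0.33 to 0.22, limma adjusted p = 0.999). RGS16 lies on chromosome 1 from 182598623 to 182604408 (minus strand) and RGS3 on chromosome 9 from 113444731 to 113597743 (plus strand). The ratio of RGS2 to RGS16 was 9.57 and 8.80 in IAA and 7.78 and 8.91 in control libraries, so that the groups overlapped in this ratio. It is a description that rests on RGS2's own values and on the few reads of RGS16.

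In the R12 subfamily, RGS10, a small regulator of Gi signalling and the most abundant member, had 185 and 186 TPM in IAA and 185 and 192 TPM in control libraries. Its log2 fold change was -0.02 with a 95% interval from -0.19 to 0.14, the narrowest of the 8 (limma adjusted p = 0.999). RGS14, a scaffold that joins G protein and Ras signals, had 10.6 and 10.2 TPM in IAA, against 11.2 and 11.2 TPM in control libraries. RGS12, a larger scaffold of the same kind, had 6.73 and 6.47 TPM in IAA, against 7.78 and 6.91 TPM in control libraries. Both IAA libraries were below both controls for these 2 genes, by small amounts. The log2 fold changes were -0.10 for RGS14 (95% interval -0.35 to 0.15) and -0.13 for RGS12 (95% interval -0.44 to 0.17), and neither passed (limma adjusted p = 0.999 for both). RGS10 lies on chromosome 10 from 119499828 to 119542708 (minus strand), RGS12 on chromosome 4 from 3293028 to 3439913 and RGS14 on chromosome 5 from 177357837 to 177372601 (both plus strand).

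In the RZ subfamily the IAA and control libraries overlapped for every gene. RGS19, first known as a partner of Gi alpha 3, had 24.7 and 28.2 TPM in IAA and 28.0 and 26.8 TPM in control libraries. RGS17 had 6.02 and 4.68 TPM in IAA and 5.25 and 4.58 TPM in control libraries. RGS20, a regulator of Gz, had 4.93 and 4.52 TPM in IAA and 5.16 and 4.64 TPM in control libraries. The log2 fold changes were -0.05 for RGS19 (95% interval -0.29 to 0.19), 0.10 for RGS17 (-0.31 to 0.50) and -0.04 for RGS20 (-0.39 to 0.30), each with a limma adjusted p of 0.999. Their signs depended on single libraries: without IAA replicate 1 RGS17 stood at -0.06 and RGS19 at 0.04, and without IAA replicate 2 RGS20 stood at 0.01. RGS17 lies on chromosome 6 from 153004459 to 153131249 and RGS19 on chromosome 20 from 64073181 to 64079988 (both minus strand), and RGS20 lies on chromosome 8 from 53851808 to 53959303 (plus strand). No member shares exon bases with another annotated gene.

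**Figure D2:**
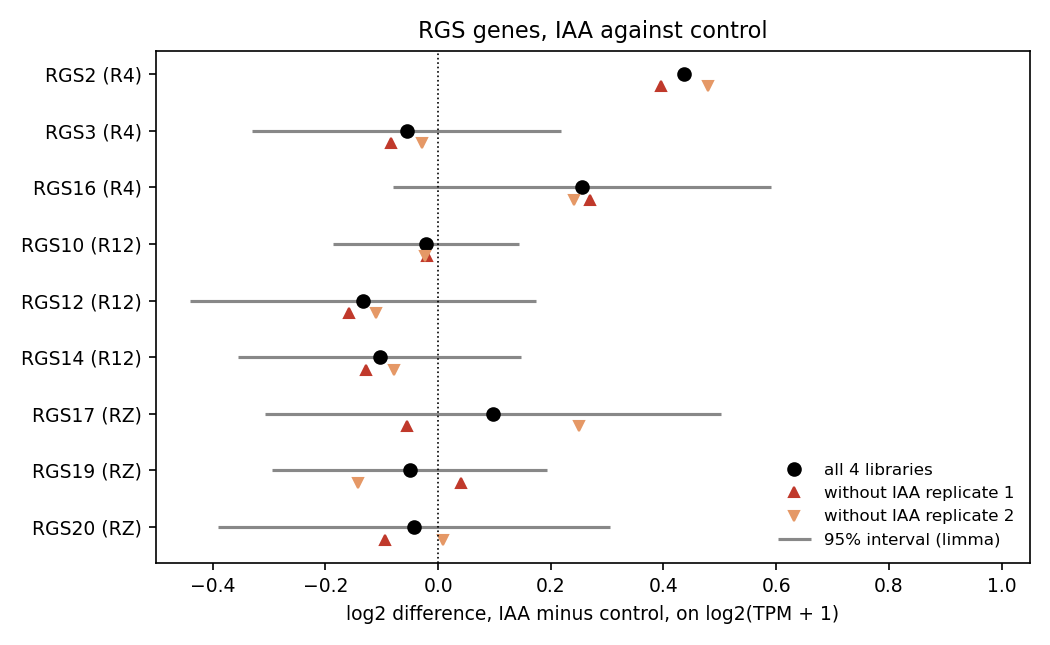
Log2 difference of IAA minus control on log2(TPM + 1) for the 9 RGS genes, grouped by subfamily, with limma's 95% interval for the 8 that were tested and triangles for the values without either IAA library. With either IAA library left out, RGS2 stays between 0.39 and 0.48 and RGS16 between 0.24 and 0.27. Not drawn are the RGS16 values of 0.33 without control replicate 1 and 0.18 without control replicate 2. The intervals of all 8 tested genes include 0.

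Summed over the 9 genes, RGS mRNA came to 307 and 305 TPM in IAA and 295 and 298 TPM in control libraries. RGS10 made up 60.3% and 60.8% of this sum in IAA and 62.6% and 64.3% in control libraries. RGS2 made up 17.5% and 16.6% in IAA and 12.9% and 12.9% in control libraries, which follows from the values it was picked for.

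Of 15 further RGS family genes and RGS binding proteins listed, 10 had a row and 4 were tested, of which 0 were called in either direction, with a median log2 fold change of 0.02. RGS9, a member of the R7 subfamily known from photoreceptors and striatum, had 5.30 and 6.13 TPM in IAA and 5.87 and 5.99 TPM in control libraries. RGS6, also of the R7 subfamily, had 4.65 and 4.09 TPM in IAA and 4.20 and 3.48 TPM in control libraries (log2 fold change 0.15, limma adjusted p = 0.999). RGS9BP, the membrane anchor of RGS9, had 0.814 and 1.21 TPM in IAA and 1.77 and 1.18 TPM in control libraries (log2 fold change -0.29, limma adjusted p = 0.999).

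RGS2 lies in a run of RGS genes on chromosome 1, and its nearest relatives there were almost silent. RGS1, whose start is 233.3 kb before that of RGS2, rested on 1 and 2 reads in IAA and 0 in both control libraries, and RGS13, 172.9 kb before it, was listed at 0 in all 4. AL136454.1, a protein-coding annotation 92.9 kb before RGS2, had 8.06 and 7.77 TPM in IAA, against 6.53 and 7.29 TPM in control libraries, and did not pass (log2 fold change 0.17, standard error 0.12, limma adjusted p = 0.999). Beyond RGS2, TROVE2, which encodes the Ro60 RNA-binding protein, had 48.6 and 39.8 TPM in IAA and 43.6 and 39.2 TPM in control libraries. UCHL5, a deubiquitinase of the proteasome, had 31.7 and 31.7 TPM in IAA and 34.9 and 31.9 TPM in control libraries. GLRX2, a mitochondrial glutaredoxin, had 10.5 and 10.1 TPM in IAA and 10.5 and 10.4 TPM in control libraries. CDC73, a subunit of the PAF1 complex, had 26.7 and 22.5 TPM in IAA and 24.6 and 22.7 TPM in control libraries. The log2 fold changes of these 4 lay between -0.07 and 0.09 (limma adjusted p = 0.999 for each). Around RGS16, RGS8 and RGSL1 were at or near 0, with at most 0.0193 TPM.

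**Figure D3:**
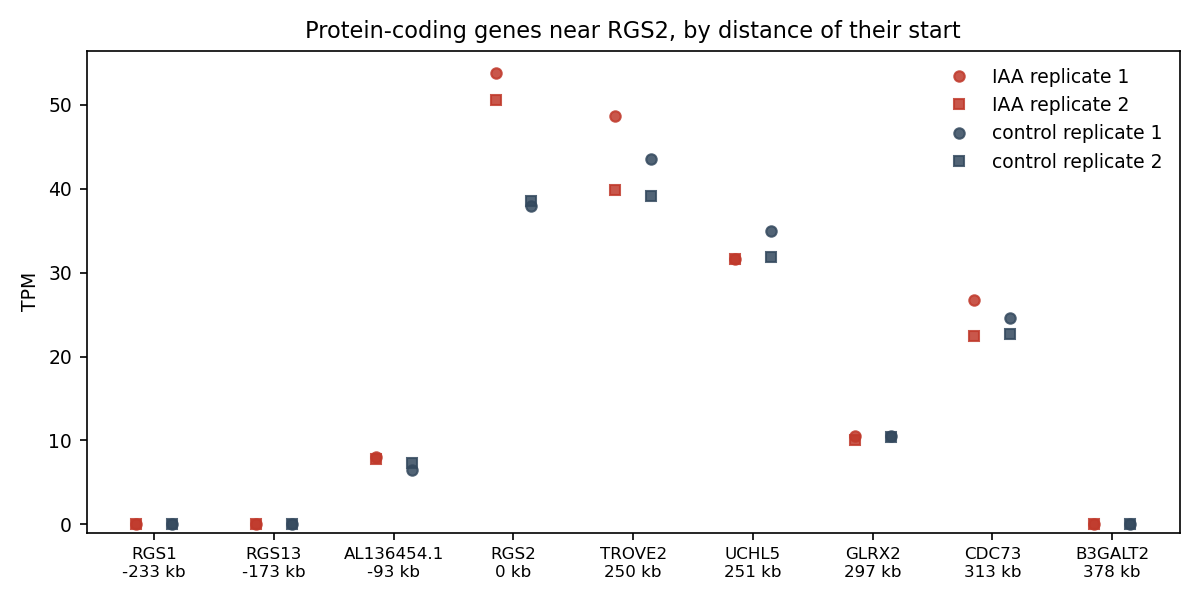
TPM of protein-coding genes with a row, ordered by distance along the chromosome, with each point a library. Their starts lie within 500 kb of that of RGS2. RGS21 also starts in this window but had no row. RGS1, RGS13 and B3GALT2 lie at or near 0. Among the rest, the IAA points lie above the control points for RGS2, which was picked for this, and by less for AL136454.1. Those of UCHL5 lie below its control points.

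Of 15 genes with a row for the G alpha subunits on which RGS proteins act, 10 were tested and 0 were called in either direction (median log2 fold change 0.01). GNAS, which encodes the stimulatory subunit, had 123 and 131 TPM in IAA and 130 and 132 TPM in control libraries. GNAI2, an inhibitory subunit, had 104 and 114 TPM in IAA and 113 and 110 TPM in control libraries. GNAZ, the substrate best known for the RZ subfamily, had 22.8 and 22.8 TPM in IAA and 21.2 and 20.2 TPM in control libraries (log2 fold change 0.13, limma adjusted p = 0.999). Of the Gq class, named after their values were seen because RGS2 acts on it, GNAQ had 37.4 and 32.1 TPM in IAA and 34.0 and 29.9 TPM in control libraries, and GNA11 had 57.7 and 64.4 TPM in IAA and 63.8 and 59.9 TPM in control libraries. RGS2 over the sum of GNAQ and GNA11 was 0.566 and 0.525 in IAA and 0.389 and 0.429 in control libraries, a description that rests on RGS2's own values.

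Among 17 G beta and gamma subunit genes, 11 were tested and 0 were called, with a median log2 fold change of -0.05. GNB2 had 213 and 250 TPM in IAA and 239 and 239 TPM in control libraries, and GNB1 had 193 and 199 TPM in IAA and 216 and 202 TPM in control libraries. GNG13, a gamma subunit of taste and sensory cells, had the smallest p among those with higher values, at 3.93 and 3.17 TPM in IAA and 2.25 and 2.10 TPM in control libraries. It rested on 46 and 40 reads in IAA and 26 and 32 reads in control libraries, and its log2 fold change of 0.52 (standard error 0.18) did not pass (limma adjusted p = 0.999). GNB3 had 5.93 and 4.54 TPM in IAA and 5.68 and 6.70 TPM in control libraries (log2 fold change -0.21, limma adjusted p = 0.999). That value was -0.37 without IAA replicate 1, -0.05 without IAA replicate 2 and -0.11 without control replicate 2.

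Proteins that carry an RGS homology domain, among them G protein-coupled receptor kinases and the axins of Wnt signalling, gave 0 calls among 14 tested, with a median log2 fold change of -0.07. GRK6 had 62.6 and 71.5 TPM in IAA and 73.7 and 69.6 TPM in control libraries. GRK2 had 51.1 and 57.6 TPM in IAA and 60.5 and 58.2 TPM in control libraries, below both controls in both IAA libraries. AXIN1 had the smallest p, at 12.6 and 14.2 TPM in IAA and 17.1 and 14.1 TPM in control libraries (log2 fold change -0.20, limma adjusted p = 0.999), and the groups overlapped. SNX13, a sorting nexin, had 12.8 and 9.41 TPM in IAA and 10.8 and 9.35 TPM in control libraries (log2 fold change 0.12, limma adjusted p = 0.999).

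Other modulators gave 0 calls among 9 tested, with a median of -0.02, and effectors 0 among 8, with a median of -0.07. ARRB2, which encodes beta-arrestin 2, had 43.1 and 48.6 TPM in IAA and 49.6 and 48.5 TPM in control libraries. GPSM2, a GoLoco protein that orients the mitotic spindle, had 42.4 and 37.3 TPM in IAA and 40.9 and 36.3 TPM in control libraries, and GPSM3 had 2.68 and 2.61 TPM in IAA and 2.53 and 2.19 TPM in control libraries. PLCB3, a phospholipase C driven by Gq, had 108 and 116 TPM in IAA and 131 and 121 TPM in control libraries. Its IAA values lay below both controls, and its log2 fold change of -0.17 (standard error 0.08) did not pass (limma adjusted p = 0.999). PLCB4, another Gq effector, had 6.54 and 6.79 TPM in IAA and 6.06 and 5.58 TPM in control libraries (log2 fold change 0.17, limma adjusted p = 0.999). ADCY3, an adenylyl cyclase, had 28.8 and 31.1 TPM in IAA and 33.1 and 29.7 TPM in control libraries.

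RGS2 is itself a gene that cAMP signals can switch on, and a list of 14 cAMP-responsive genes gave 0 calls among 10 tested, with a median log2 fold change of 0.04. NR4A2, an orphan nuclear receptor induced early by cAMP, had 27.5 and 23.8 TPM in IAA and 20.8 and 20.8 TPM in control libraries. The groups did not overlap, but the log2 fold change of 0.29 (standard error 0.10) did not pass (limma adjusted p = 0.999). In 3 of the 10 both IAA values exceeded both control values, against 11.8% of all genes tested, and in 4 both were lower, against 17.7%. The median turned to -0.031 without IAA replicate 1, -0.027 without IAA replicate 2 and -0.019 without control replicate 2. Over all genes tested the median in these runs was -0.039, 0.0091 and -0.056. Among those with lower values were AREG, an EGF receptor ligand, at 625 and 642 TPM in IAA and 673 and 668 TPM in control libraries, and PDE4A, a cAMP phosphodiesterase, at 22.9 and 23.4 TPM in IAA and 27.8 and 24.6 TPM in control libraries. PDE4B had 74.2 and 62.4 TPM in IAA and 69.2 and 63.3 TPM in control libraries.

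**Figure D4:**
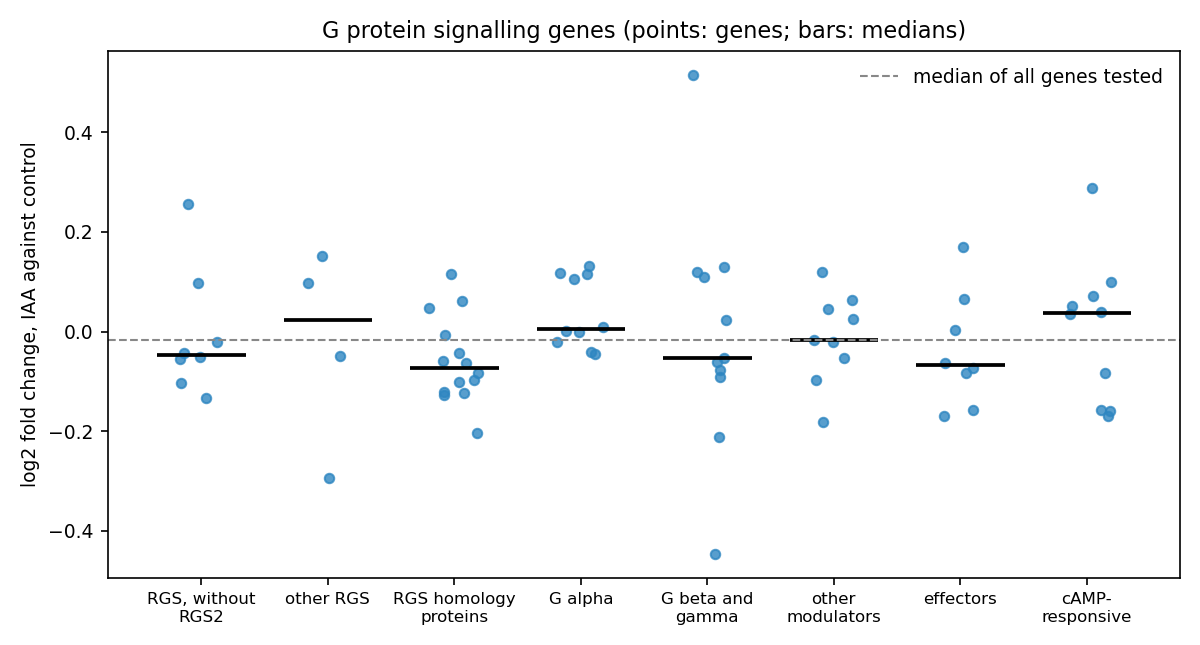
Log2 fold change of IAA against control for each tested gene of the 8 RGS members besides RGS2 and of 7 lists of G protein signalling genes, with each point a gene, each bar a list median and the dashed line the median of all genes tested (-0.02). The list medians lie between -0.07 and 0.04, and no point passed the test.

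The 5 protein-coding genes whose profile over the 4 libraries was nearest to that of RGS2 were FLRT3, METTL25, BDH2, DPP4 and TIPARP. The measure was the Euclidean distance of centred log2(TPM + 1) values, which ran from 0.106 to 0.135 for these 5, among 10451 candidates whose mean reached 5 TPM. Because the search used the values RGS2 was picked for, higher IAA values in these 5 follow from it and are no result. FLRT3, a membrane protein with leucine-rich repeats, had 6.39 and 5.46 TPM in IAA and 4.27 and 3.99 TPM in control libraries. BDH2, a short-chain dehydrogenase, had 12.5 and 12.1 TPM in IAA and 9.70 and 9.62 TPM in control libraries. DPP4, a surface peptidase, had 10.1 and 8.74 TPM in IAA and 7.22 and 7.25 TPM in control libraries. TIPARP, a target of the aryl hydrocarbon receptor, had 42.6 and 36.9 TPM in IAA and 29.7 and 27.2 TPM in control libraries, and METTL25 had 6.24 and 5.71 TPM in IAA and 4.64 and 4.37 TPM in control libraries. With 4 points the likeness depended on single libraries, and 0 of the 5 were found again without IAA replicate 1.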

How the data were processed

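RNA-seq values of 4 libraries were analysed. The authors deposited 1 table of TPM values, which sum to 1000000 in each library, with the length of each gene in bases as another deposited column. Tools and builds in the submitters' processing notes are DESeq2 1.20.0, featureCounts 1.5.2, GRCh38.p12 and hg38, with no role stated. How reads were aligned, and whether counting used strand, is not given in the sources used here. Identifiers and names of all 34826 rows matched GENCODE release 29, from which coordinates were taken. Multiplying TPM by length and dividing by the smallest value of the library gave whole numbers for 100% of genes (tolerance 1e-06), taken as reads.

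IAA was compared with control by limma 3.58.1 in R 4.3.3 (lmFit, eBayes with a trend) on log2(TPM + 1) for genes reaching 1 TPM in 2 or more libraries, with Benjamini-Hochberg adjustment over all 17896 genes, a threshold of 0.05 and 2 residual degrees of freedom. An exact permutation test of 2 against 2 libraries cannot go below 0.333, so none was used. No set test was run on any list. The code was tested on simulated data.

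The members and lists were chosen with earlier results of these data known. Named were all members, per list the 2 genes with the highest mean TPM and the gene with the smallest p in each direction, the 5 genes nearest to RGS2 in profile, and MKI67. GNAQ, GNA11 and the chromosome neighbours were chosen after their values were seen. Counting intervals (95% exact Poisson) cover counting error only, because PCR copies were not marked by molecular identifiers. Alternatives covered the pseudocount, filter, scaling, voom, protein-coding genes, a replicate block and leaving out each library.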

Additional observations from a re-analysis of the deposited data

How the results depend on the processing

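RGS2 kept a log2 difference between 0.39 and 0.48 in every alternative run, and 0 of the 8 other members and 0 genes of the 7 lists were called in any of them. Calls over all genes numbered 1 higher by voom, and 12 higher and 25 lower on protein-coding genes alone, against 0 in each direction; with any 1 library left out the calls ranged over 0 to 534 (higher) and 0 to 424 (lower), in fits where a lone library is assumed to vary like the other group. The cause of these changes was not tested. With 1 library left out, log2 fold changes turned sign for RGS3 (range -0.12 to 0.0058), RGS10 (-0.048 to 0.0056), RGS17 (-0.055 to 0.25), RGS19 (-0.14 to 0.040), RGS20 (-0.11 to 0.020), MKI67 (-0.29 to 0.089), SNX13 (-0.088 to 0.32) and GNAS (-0.095 to 0.0041). List medians also turned sign in 6 of the 7 lists: other RGS genes (-0.031 to 0.060), G alpha (-0.030 to 0.082), G beta and gamma (-0.055 to 0.0048), other modulators (-0.068 to 0.063), effectors (-0.13 to 0.037) and cAMP-responsive genes (-0.031 to 0.040). The median over all genes tested turned sign as well in these runs (-0.056 to 0.021). The level order held for 7 to 9 of the 9 members when a library was left out and for 4 with principal transcript lengths, which were added after the data were seen. Of the 5 genes nearest to RGS2, 3 were shared with a pseudocount of 0.1 TPM, 0 with Pearson correlation and 0 to 1 when a library was left out. RGS20 had no value at a filter of 5 TPM. With the replicate number as a block, 0 genes were called in either direction and RGS2 again stood at 0.44; the labels do not say that numbers mark a shared day, and same-numbered libraries deviated with a correlation of -0.07 across genes. Reads per member (139 to 3722 in a library) limit the low members, whose 95% counting interval had a half-width of up to 17.0% of the reads.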
